A study of Homo sapiens with 12 samples.

Results

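Genes linked to tubular injury and to the acute-phase response were followed in a human kidney epithelial line, and there were 8 of them: LCN2, HAVCR1, CLU, SPP1, SAA1, SAA2, IGFBP7 and SOX9. They were chosen by symbol, and each of the 8 matched 1 of the 58278 genes listed. All 8 passed the filter on low counts, as did 24342 genes in all. In cells given TNF-α with a short-chain fatty acid (SCFA), CLU, SAA1 and SAA2 rose 6.61-fold to 20.5-fold against TNF-α alone. HAVCR1, SPP1, IGFBP7 and SOX9 fell by 1.65-fold to 4.42-fold. LCN2 was past the 1.5-fold threshold against TNF-α alone in the groups given the SCFA after TNF-α, where it rose 2.95-fold and 5.12-fold. The protein names in common use are NGAL for LCN2, KIM-1 for HAVCR1, clusterin for CLU and osteopontin for SPP1.

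Injured proximal tubule cells lose transport functions and switch on a set of stress and repair genes, several of which are measured in urine as signs of kidney damage. LCN2 encodes a secreted protein that binds bacterial siderophores, and HAVCR1 a surface receptor with which tubule cells take up dead cells. CLU encodes an extracellular chaperone, SPP1 a secreted matrix protein bound by integrins and CD44, and IGFBP7 a secreted binding protein used in urine as a marker of cell-cycle arrest. SOX9 is a transcription factor of tubule cells in repair. SAA1 and SAA2 encode serum amyloid A, the apolipoproteins that the liver releases in the acute-phase response, and tubule epithelium can make them as well.

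On GRCh38, as annotated in GENCODE 44, LCN2 lies at chr9:128149071-128153453, SPP1 at chr4:87975667-87983532 and SOX9 at chr17:72121020-72126416, all on the plus strand. HAVCR1 lies at chr5:157026742-157069396 and IGFBP7 at chr4:57030773-57110385, both on the minus strand. SAA1 at chr11:18266260-18269977 on the plus strand and SAA2 at chr11:18239223-18248668 on the minus strand are close neighbours. CLU lies on chromosome 8. All 8 are protein-coding genes. The deposited counts are RSEM estimates per gene, for which the authors report another GENCODE version than the one used for these positions.

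The cells were HK2, proximal tubular epithelium of human origin made immortal in culture, so all groups come from 1 line. The 12 libraries form 6 groups of 2 biological replicates. Untreated cells are called Ctrl, and TN cells received 5 ng/mL of TNF-α over 3 h. The other groups received the same TNF-α together with an SCFA for 24 h. Propionate at 15 mM was added before TNF-α in PRTN and after it in TNPR, and butyrate at 3 mM was added before it in BUTN and after it in TNBU. Cells given an SCFA without TNF-α, and cells kept after TNF-α for the same time without an SCFA, were not analysed here. The effect of an SCFA, the elapsed time and the order of the agents therefore cannot be told apart in several of the comparisons. The labels' general treatment text names other compounds, and the treatment given for each library was used.

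The deposited values were expected counts per gene, and 27269986 to 33851130 of them were summed per library. Levels are given as CPM, counts scaled to the library total with TMM factors, and 3 counts corresponded to 0.0867 to 0.112 CPM. Replicates of TNPR and TNBU differed most from each other, with a chi-square per gene of 15.1 and 18.1 against 3.17 to 6.60 in the other groups. Of 13 proximal tubule markers, 8 reached a mean of 1 CPM over the 12 libraries, among them CUBN, AQP1, GGT1, PAX8 and CDH6. AQP1 and ANPEP reached it only through the SCFA groups. AQP1 averaged 0.540 CPM in Ctrl and 0.439 in TN, and 6.31 to 14.8 CPM in the SCFA groups. ANPEP averaged 0.0515 CPM in Ctrl and 0 in TN, and 0.999 to 2.10 CPM in the SCFA groups. LRP2, MME and HNF4A were listed at 0 in each of the 4 libraries without SCFA, and SLC34A1 stayed below 0.1 CPM in its group means. The summed level of the 13 markers was 1857 to 1889 CPM in Ctrl, 1456 to 1514 in TN, 360.3 to 369 in PRTN, 392 to 406 in BUTN, 324 to 369.6 in TNPR and 323 to 339 in TNBU. CDH6 was the largest part of it in Ctrl and TN, with means of 1107 and 749.8 CPM, and had means of 44.7 to 82.6 CPM in the SCFA groups, where PAX8 was higher with means of 131 to 158 CPM. All 5 epithelial markers reached that mean, with a sum of 1116 to 1215 CPM in the libraries without SCFA and 1729 to 2317 CPM in those with it. KRT8 and KRT18 made up most of that sum, with means of 725 and 355 CPM in TN. The 5 did not move as one. Against TN, 4 were called up and 1 down in PRTN, BUTN and TNBU, and 3 up and 1 down in TNPR. Over all genes 23.1% to 25.0% were called up and 14.8% to 16.9% down. Among 6 leukocyte markers CD68 and CD14 reached a mean of 1 CPM, and the sum was 27.5 to 52.4 CPM, with PTPRC below 0.2 CPM in every library. The 3 fibroblast markers summed to 43.4 to 52.7 CPM without SCFA and to 153 to 211 CPM with it, most of which was COL1A1. The 3 endothelial markers summed to 0.143 to 0.287 CPM without SCFA and to 2.18 to 3.61 CPM with it, and all 3 were called up against TN in each SCFA group. The podocyte gene NPHS1 was below 0.3 CPM without SCFA and between 1.62 and 3.54 CPM with it, and the 4 distal nephron markers summed to 0.0372 to 0.275 CPM without SCFA and 0.256 to 0.796 CPM with it. The part of these markers in the differences between SCFA groups and TN was not tested. In bulk RNA, fewer cells of a type and less RNA per cell cannot be told apart.

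LCN2 and HAVCR1 went in opposite directions in the groups given an SCFA after TNF-α, so the bases before their start sites are shown. Sequences come from the RefSeq table of GRCh38.p14, which held LCN2, HAVCR1 and SPP1 among the 8 genes. The LCN2 stretch lies at chr9:128149265-128149440 on the plus strand, 188 to 13 bases before the RefSeq start. The HAVCR1 stretch lies at chr5:157059120-157059366 on the minus strand, 250 to 4 bases before its start. Both lie within the span of the gene in GENCODE 44, outside its annotated exons. Capitals in LCN2 mark matches to the NF-kB letters (GGG, any 5 bases, then CC), found on both strands with an overlap, and to the AP-1 letters TGANTCA. Capitals in HAVCR1 mark the only match to the C/EBP letters TTNNGNAAN, on the opposite strand.
LCN2: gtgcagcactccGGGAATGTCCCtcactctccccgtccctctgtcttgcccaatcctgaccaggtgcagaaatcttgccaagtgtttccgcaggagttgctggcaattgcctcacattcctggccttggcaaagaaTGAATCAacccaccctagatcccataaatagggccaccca
HAVCR1: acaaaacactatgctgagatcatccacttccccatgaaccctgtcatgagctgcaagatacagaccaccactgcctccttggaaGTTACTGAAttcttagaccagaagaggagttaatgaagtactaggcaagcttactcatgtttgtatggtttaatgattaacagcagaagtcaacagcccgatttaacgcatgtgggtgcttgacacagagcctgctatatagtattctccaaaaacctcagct

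In the 250 bases before the start of 35116 promoters, the NF-kB letters occurred in 54.4%, the AP-1 letters in 6.57% and the C/EBP letters in 33.1%. The C/EBP letters also matched once in the LCN2 stretch, where they are not capitalised. Also searched were the GC box GGGCGG (42.6%), the TATA box TATAAA (10.7%) and the RUNX letters ACCACA (10.98%), and none of them was in the LCN2 or HAVCR1 window. A match describes the letters only, and no binding was measured.

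The first comparison asked whether TNF-α alone changed these genes. LCN2 was at 129.6 and 124 CPM in Ctrl and at 153 and 166 CPM in TN. SOX9 averaged 18.2 ± 0.338 CPM (SD, n = 2) in Ctrl and was at 24.3 and 26.4 CPM in TN. Both genes were higher in each TN library than in each Ctrl library. In the limma-voom fit across all genes the log2 difference was 0.33 ± 0.06 (SE) for LCN2, with an adjusted p of 0.0121, and 0.48 ± 0.08 for SOX9, with an adjusted p of 0.00391. These are rises of 1.26-fold and 1.39-fold, below the 1.5-fold that a call requires. So 0 of 8 genes were called between TN and Ctrl by limma-voom, by edgeR and by DESeq2, where limma-voom called 1.30% of all genes tested, 0.764% up and 0.534% down. At an unadjusted p under 0.05 the count was 2.

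HAVCR1, the receptor, was at 197 and 205 CPM in Ctrl and at 194 and 202 CPM in TN, a log2 difference of -0.02 with a 95% interval of -0.31 to 0.28. SAA1 was at 154 and 147 CPM in Ctrl and at 147 and 159.5 CPM in TN, with an interval of -0.24 to 0.29. The groups overlapped for both genes. Adjusted p-values were 0.59 or higher for CLU, SPP1, SAA2 and IGFBP7 too. PTX3 and IL6, acute-phase genes outside the 8, were called up in the same comparison.

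**Figure D1:**
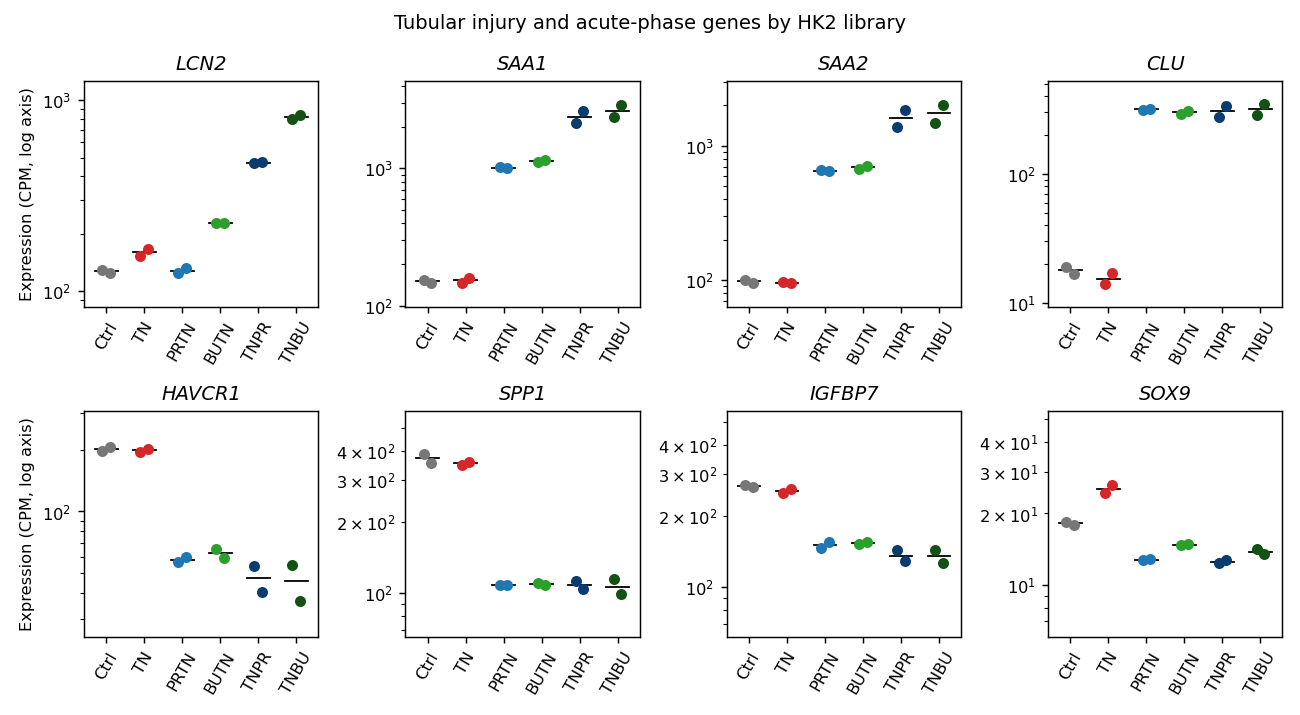
Level of each gene in CPM on a log axis (y) in the 6 groups (x), with 1 point per library and a line at the mean of 2 libraries. CLU, SAA1 and SAA2 lie higher and HAVCR1, SPP1 and IGFBP7 lower in all 8 SCFA libraries than in the 4 libraries without SCFA, and LCN2 is highest in TNBU at 794 and 839 CPM.

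Next, each SCFA group was compared with TN. The 4 comparisons share the TN libraries, so their values are given side by side and not as independent repeats. In PRTN 7 of the 8 genes were called, 3 up and 4 down, where 40.6% of all genes were called, 23.9% up and 16.7% down. BUTN had the same counts, 3 up and 4 down, beside 37.9% of all genes, 23.1% up and 14.8% down. With TNPR all 8 were called, 4 up and 4 down, beside 41.8% of all genes, 24.9% up and 16.9% down. For TNBU it was again 4 up and 4 down, beside 41.6%, 25.0% up and 16.5% down. The median log2 difference of the 8 genes was -0.54 for PRTN, -0.10 for BUTN, 0.33 for TNPR and 0.74 for TNBU. It lay midway between LCN2 and IGFBP7 in PRTN, BUTN and TNPR, and between LCN2 and SOX9 in TNBU. The median thus followed LCN2 and does not describe a shared shift of the 8 genes. Over all genes the median was 0.09, 0.08, 0.12 and 0.09, in the same order. The SCFA groups had 24 h of SCFA beside the 3 h of TNF-α, and without cells kept as long with no SCFA, the SCFA and the elapsed time cannot be told apart.

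CLU, the extracellular chaperone, had the largest difference of the 8 in each of these 4 comparisons. It was at 19.1 and 16.9 CPM in Ctrl and at 14.0 and 16.9 CPM in TN. With an SCFA given first it was at 314 and 319 CPM in PRTN and at 292 and 307 CPM in BUTN. With an SCFA given later it was at 275 and 338 CPM in TNPR and at 286 and 349.8 CPM in TNBU. Every SCFA library was thus above every library without SCFA, and the 4 SCFA groups lay within one range. The log2 differences from TN were 4.36, 4.28, 4.30 and 4.36 in PRTN, BUTN, TNPR and TNBU, each with an SE of 0.15. They correspond to rises of 19.4-fold to 20.5-fold, and the highest adjusted p was 8.61e-10. By size CLU ranked 524, 598, 546 and 612 among the 24342 genes, counted from the largest rise.

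SAA1 and SAA2 form the acute-phase pair among the 8. SAA1 was at 1015 and 1009.8 CPM in PRTN and at 1109 and 1151 CPM in BUTN. It reached 2130.2 and 2610.0 CPM in TNPR and 2380.5 and 2879 CPM in TNBU. Levels formed 3 steps that did not overlap: libraries without SCFA, SCFA first, and SCFA later. Against TN the log2 difference of SAA1 was 2.72, 2.88, 3.94 and 4.10 in PRTN, BUTN, TNPR and TNBU (SE 0.11 each), which is 6.61-fold, 7.38-fold, 15.4-fold and 17.1-fold. SAA2 went from 96.0 and 94.4 CPM in TN to 658 and 648 CPM in PRTN and 677 and 701 CPM in BUTN. It was at 1389 and 1837 CPM in TNPR and at 1484 and 2026 CPM in TNBU. Its log2 difference was 2.78, 2.86, 4.07 and 4.19 in the same order, with an SE of 0.15 to 0.16.

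The SAA pair cannot be fully separated in counts. A SAA1 transcript of 518 bases was identical to a SAA2 transcript at 95.4% of 518 aligned columns, and 34.2% of the 50-base stretches of SAA1 transcripts also occur in SAA2. Expected counts divide reads that match both, and SAA2 received 0.592 to 0.704 counts for each SAA1 count over the 12 libraries. With counts of both genes summed, an alternative added after the data were seen, the log2 difference from TN was 2.74, 2.87, 3.99 and 4.13. The read-through gene SAA2-SAA4 stayed at 29.9 to 116 counts per library.

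LCN2 was the only one of the 8 whose SCFA groups lay on both sides of TN. It was at 124 and 132 CPM in PRTN, at the level of Ctrl, and at 228 in each library of BUTN. It reached 468 and 473 CPM in TNPR and 794 and 839 CPM in TNBU. No 2 of these 4 groups overlapped, and replicates differed by little, with SDs of 0.138 to 31.9 CPM. Against TN the log2 difference was -0.32 in PRTN and 0.52 in BUTN, with adjusted p-values of 0.000724 and 1.18e-05, and neither reached 1.5-fold. It was 1.56 in TNPR (adjusted p = 8.73e-10) and 2.36 in TNBU (adjusted p = 6.38e-11), each with an SE of 0.06. With scaling by library size alone the BUTN difference was 0.67 and passed the fold threshold.

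HAVCR1 and SPP1 fell the most. PRTN held HAVCR1 at 56.7 and 59.8 CPM, BUTN at 65.9 and 59.2 CPM, TNPR at 54.3 and 40.4 CPM, and TNBU at 55.0 and 36.7 CPM. All 8 SCFA libraries were far below the lowest TN library, at 194 CPM. The log2 difference was -1.77, -1.67, -2.08 and -2.14, with an SE of 0.14 to 0.15 and adjusted p-values up to 9.48e-07. In fold terms the falls were 3.41-fold, 3.18-fold, 4.22-fold and 4.42-fold. SPP1, the secreted matrix protein, went from 349.6 and 360.3 CPM in TN to between 99.1 and 114 CPM in the 8 SCFA libraries. Its log2 difference was -1.71, -1.69, -1.71 and -1.74 (SE 0.07), a fall of 3.24-fold to 3.33-fold in every group. An unnamed lncRNA lies on the strand opposite SPP1, and the strand setting of the counting was not given in the sources used here.

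IGFBP7 and SOX9 fell by less. IGFBP7 averaged 255 ± 8.42 CPM (SD, n = 2) in TN and was between 126 and 155 CPM in the SCFA libraries. Its log2 difference was -0.76, -0.73, -0.91 and -0.92 (SE 0.07), close to the fold threshold, and with scaling by library size alone the BUTN value was -0.57 and not called. PRTN held SOX9 at 12.7 and 12.8 CPM, BUTN at 14.7 and 14.8 CPM, TNPR at 12.3 and 12.7 CPM, and TNBU at 14.2 and 13.4 CPM. Its log2 difference from TN was -0.99, -0.78, -1.02 and -0.88 (SE 0.08), with adjusted p-values up to 2.58e-06. SOX9-AS1 and another lncRNA lie opposite SOX9, and POLR2B and IGFBP7-AS1 lie opposite parts of IGFBP7. IGFBP7-AS1 had 0 to 3.03 counts per library.

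**Figure D2:**
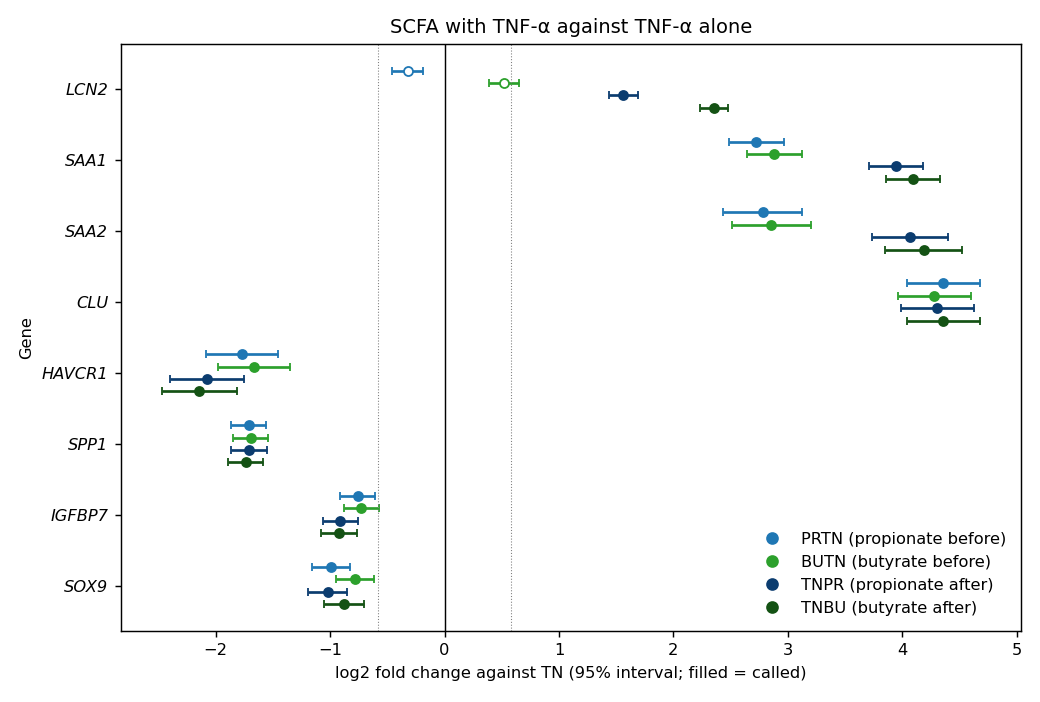
Log2 fold change against TN (x) for each gene (y) in the 4 SCFA groups, as points with 95% intervals from limma-voom. Filled points were called and dotted lines mark 1.5-fold. LCN2 goes from -0.32 in PRTN to 2.36 in TNBU, whereas CLU lies between 4.28 and 4.36 and SPP1 between -1.74 and -1.69 in all 4 groups.

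Compared with untreated cells instead of TN, PRTN had 3 of the 8 genes up and 3 down, where 39.4% of all genes were called, 22.6% up and 16.9% down. BUTN had 4 up and 3 down, beside 36.9%, 22.0% up and 14.9% down. The counts were also 4 up and 3 down for TNPR, beside 40.4%, 23.6% up and 16.8% down, and for TNBU, beside 40.0%, 23.6% up and 16.5% down. LCN2 in PRTN did not differ detectably from Ctrl, with a log2 difference of 0.01 and an interval of -0.12 to 0.15. In BUTN it was 1.80-fold above Ctrl, with a log2 difference of 0.85 (adjusted p = 1.99e-07), and in TNPR and TNBU 3.71-fold and 6.44-fold above it. SOX9 was below Ctrl by a log2 value of -0.51, -0.30, -0.54 and -0.40 in PRTN, BUTN, TNPR and TNBU. Those values had adjusted p-values of 9.53e-05 to 0.00601 without reaching 1.5-fold. HAVCR1 was at -1.79, -1.68, -2.10 and -2.16 against Ctrl, close to its values against TN.

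The timing comparison asked whether an SCFA given after TNF-α gave other levels than the same SCFA, at the same dose, given before it. For propionate, TNPR against PRTN, 3 of 8 genes rose and 0 fell, where 0.160% of all genes were called, 0.0534% up and 0.107% down. For butyrate, TNBU against BUTN, 3 of 8 rose and 0 fell, where 0.267% of all genes were called, 0.0945% up and 0.173% down. At an unadjusted p under 0.05 the numbers that fell were 0 and 2, and edgeR and DESeq2 each called 3 genes in both comparisons. The genes were LCN2, SAA1 and SAA2 both times. They were 3 of the 13 genes called up for propionate and 3 of the 23 called up for butyrate.

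LCN2 had the lowest p of all 24342 genes in both timing comparisons. It was 3.68-fold higher in TNPR than in PRTN, a log2 difference of 1.88 ± 0.06 (SE) with an adjusted p of 9.49e-09. It was 3.57-fold higher in TNBU than in BUTN, a log2 difference of 1.84 ± 0.06 with an adjusted p of 6.54e-09. SAA1 had the p of rank 4 in both, with log2 differences of 1.22 ± 0.10 and 1.21 ± 0.10, and adjusted p-values of 0.000138 and 0.000137. SAA2 had log2 differences of 1.29 ± 0.13 and 1.33 ± 0.13, with adjusted p-values of 0.00179 and 0.00111. In fits of only the 2 groups compared, SAA2 missed the threshold, with adjusted p-values of 0.0887 and 0.0552. The summed SAA counts gave 1.25 and 1.26, with adjusted p-values of 0.000469 and 0.000322.

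The other 5 genes were not called by timing. CLU had a log2 difference of -0.05 (95% interval -0.28 to 0.17) for propionate and 0.08 (-0.15 to 0.31) for butyrate. SPP1 had 0.00 (-0.16 to 0.16) and -0.04 (-0.21 to 0.12). SOX9 had -0.03 (-0.21 to 0.15) and -0.10 (-0.28 to 0.08). These intervals lie within the 1.5-fold threshold in both directions. HAVCR1 was lower in each library of the later groups than in those of the earlier ones, with -0.31 (-0.65 to 0.03) and -0.48 (-0.82 to -0.13), intervals that reach past 1.5-fold. Without replicate 1 of TNBU the butyrate value was -0.78 with an adjusted p of 0.0134. IGFBP7 had -0.15 and -0.19. Replicates 2 of TNPR and TNBU were above replicates 1 for SAA1, SAA2 and CLU and below them for HAVCR1, SPP1 and IGFBP7. Leaving out each library in turn ended no call among the 8 genes.

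The 2 orders of treatment also differ in the time from TNF-α to harvest. TNF-α was the last agent in PRTN and BUTN and the first in TNPR and TNBU. The later SCFA and the longer time after TNF-α cannot be told apart for LCN2, SAA1 and SAA2. Propionate and butyrate were used at different doses, so no test was made between them. LCN2 averaged 128 CPM with propionate first and 228 CPM with butyrate first. With the SCFA later it averaged 471 CPM for propionate and 816 CPM for butyrate.

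**Figure D3:**
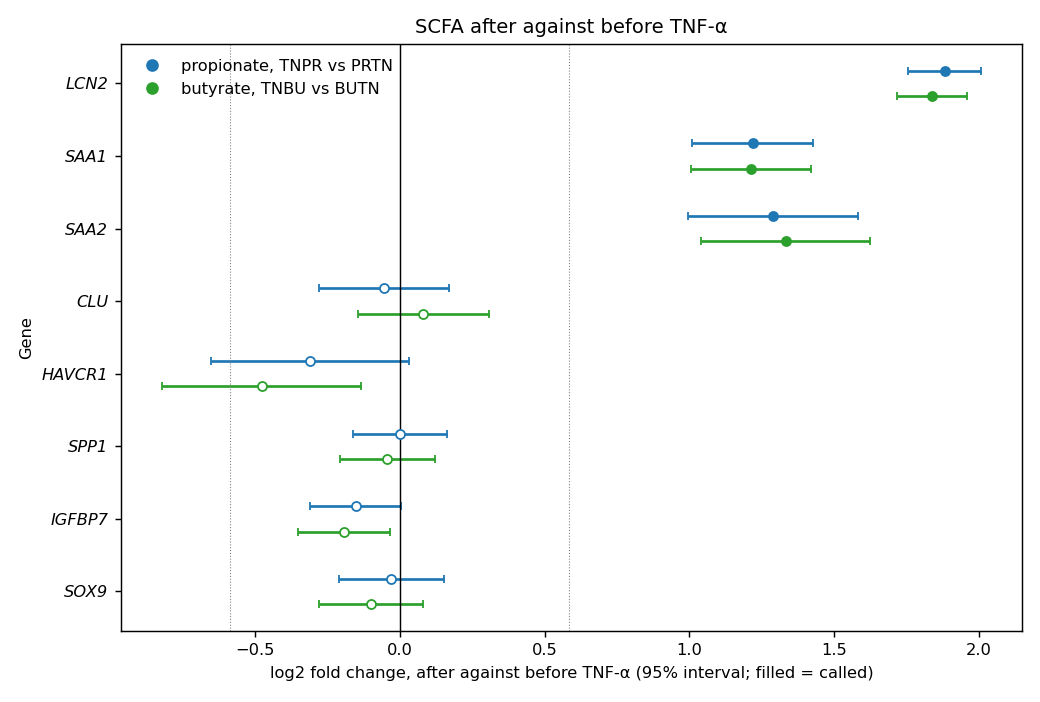
Log2 fold change of the SCFA given after against before TNF-α (x) for each gene (y), as points with 95% intervals from limma-voom for propionate and butyrate. Filled points were called and dotted lines mark 1.5-fold. LCN2 lies at 1.88 and 1.84, SAA1 and SAA2 lie between 1.21 and 1.33, and the other 5 genes are not called.

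Levels were compared between genes per kilobase of exon (CPM per kb, GENCODE 44 exon length). That length is the union of all annotated exons, 7250 bases for SPP1 and 2242 for SAA2. It can exceed the length of the transcripts present, as a SAA2 transcript has 576 bases. The counts themselves were made by the authors with another GENCODE version. The order between genes therefore depends on the length used. In CPM without a length, SPP1 was the highest of the 8 in Ctrl, at 372. In Ctrl the order was SAA1 at 142, IGFBP7 at 138, LCN2 at 79.4, SPP1 at 51.3, SAA2 at 43.5, HAVCR1 at 41.4, SOX9 at 4.63 and CLU at 2.87 CPM per kb. In TNBU it was SAA1 at 2476, SAA2 at 783, LCN2 at 511, IGFBP7 at 70.0, CLU at 50.6, SPP1 at 14.7, HAVCR1 at 9.44 and SOX9 at 3.51. CLU thus moved from the lowest place to above SPP1 and HAVCR1. The lengths of SAA1 and SAA2 differ, and their order depends on how shared reads were divided. The span from the lowest to the highest library was widest for CLU, at 25.0-fold, followed by SAA2 at 21.5-fold and SAA1 at 19.6-fold. It was 6.77-fold for LCN2, 5.58-fold for HAVCR1, 3.91-fold for SPP1, 2.14-fold for SOX9 and 2.13-fold for IGFBP7.

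For each gene, the 3 genes with the most similar profile over the 12 libraries were found among 14983 genes with a mean of at least 1 CPM, by Pearson's r of log2 CPM. These r values describe 12 libraries that mostly share one split, 8 with SCFA and 4 without. LCN2 was the least matched, with 0.965 for RTN2, 0.946 for PI3, which encodes the protease inhibitor elafin, and 0.915 for CEP112. CLU was closest to KRT81, LINC01554 and BCAS1, each at 0.999. HAVCR1 was closest to QRICH1 (0.998), the Notch ligand gene JAG1 (0.997) and LRIG3 (0.996). IGFBP7 followed TBX18 (0.998), TLE4 (0.997) and HAVCR1 itself (0.996). SPP1 was closest to NNT (0.999), AJUBA and CHD3. SAA1 and SAA2 were closest to each other (0.999) and next to DGAT2, an enzyme of triglyceride synthesis (0.993 for each). SOX9 was closest to NAV3 (0.991), LOXL1-AS1 and CDC42, both at 0.985.

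The 8 genes were set beside 6 lists of related genes. Their counts stand beside the shares of all genes called: 0.764% up and 0.534% down in TN against Ctrl, and 23.1% to 25.0% up and 14.8% to 16.9% down in the SCFA groups against TN. No list was tested as a set. Of 30 other kidney injury markers 26 were tested, and 1 rose in TN against Ctrl, VCAM1, an adhesion molecule of injured tubule cells. Propionate given first had 10 rises and 7 falls against TN, and given later 7 and 6. Butyrate had 9 rises and 6 falls at both times. The list median was 0.29 to 0.37 on the log2 scale, above the all-gene medians of 0.08 to 0.12. VCAM1 rose from 3.12 and 2.76 CPM in Ctrl to 7.89 and 7.47 in TN and was below 0.3 CPM in every SCFA library. KRT19, a keratin of simple epithelia, went from 4.47 and 4.59 CPM in TN to between 82.3 and 121 CPM. KL, which encodes klotho, fell from 4.24 and 4.70 CPM to between 0.455 and 1.00 CPM. The authors describe klotho as renoprotective and as lowered after damage in mice. They also report that propionate partly restored its expression in mouse kidney, the opposite direction to KL in these HK2 cells. The reason for that difference was not tested. The rises and falls of this list therefore do not share a meaning.

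Of 27 other acute-phase proteins 19 were tested. TNF-α alone raised 3, among them PTX3, a pentraxin, by a log2 value of 1.99 and F3, tissue factor, by 0.98. The genes that rose and fell against TN numbered 7 and 4 for PRTN, 9 and 3 for BUTN, 6 and 2 for TNPR, and 8 and 3 for TNBU. The list median was -0.12, 0.33, 0.13 and 0.43, and -0.16, 0.18, -0.08 and 0.37 with ORM1 and ORM2, which were at 0 in TN, set at their bounds. PTX3 was at 62.2 and 65.6 CPM in Ctrl, 248 and 259 in TN, 165 and 172 in PRTN, and 174 and 172 in BUTN. It was at 75.4 and 41.5 CPM in TNPR and 66.9 and 37.4 in TNBU. In the timing comparisons PTX3 fell by 1.59 for propionate and by 1.79 for butyrate on the log2 scale, with adjusted p-values of 0.0149 and 0.00617. It was the only one of the 19 called there, where 0.107% of all genes were called down for propionate and 0.173% for butyrate. It fell where SAA1 and SAA2 rose. Fibrinogen genes split, with FGA rising by 3.29 and FGB falling by 1.60 in PRTN on the log2 scale.

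The list of acute-phase signalling, all 25 genes tested, holds cytokines, receptors and transcription factors above SAA and LCN2. In TN 6 rose and 0 fell, where 0.764% of all genes were called up, among them IL6, whose product drives the hepatic acute phase, at 34.2 and 41.3 CPM in Ctrl and 112 and 109 in TN. Rises and falls against TN numbered 8 and 9 for PRTN, 8 and 8 for BUTN, 6 and 11 for TNPR, and 8 and 11 for TNBU, beside 23.1% to 25.0% up and 14.8% to 16.9% down over all genes. The list medians were -0.35 to -0.21. IL6 was between 9.69 and 17.3 CPM in the SCFA libraries, a log2 difference from TN of -3.37, -2.78, -3.32 and -3.40. CEBPD, a transcription factor of acute-phase promoters, fell by 2.55, 2.44, 2.81 and 2.61 on the log2 scale in the same order. TNFRSF1B, the second TNF receptor, rose from 0.893 and 1.26 CPM in TN to group means of 8.61 to 11.8 CPM. IL6 and CEBPD were thus low in the same libraries in which SAA1 and SAA2 were high. IL1B, of the same list, went the other way from a count of 0 in both TN libraries. Its group means were 0.986 and 0.994 CPM where propionate or butyrate came first, and 0.306 and 0.310 CPM where they came later. A link between genes of this list and SAA1 or SAA2 was not tested. In the timing comparisons 0 of the 25 rose and 1 fell for propionate, beside 0.0534% up and 0.107% down over all genes. For butyrate 1 rose and 3 fell, beside 0.0945% up and 0.173% down. NFKB1, an NF-kB subunit, fell by 0.67 and by 0.83. With butyrate NFKBIA and LIF also fell and SOCS3 rose, by 0.72. NFKBIA, LIF, SOCS3 and IL1B were named after their values were seen.

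**Figure D4:**
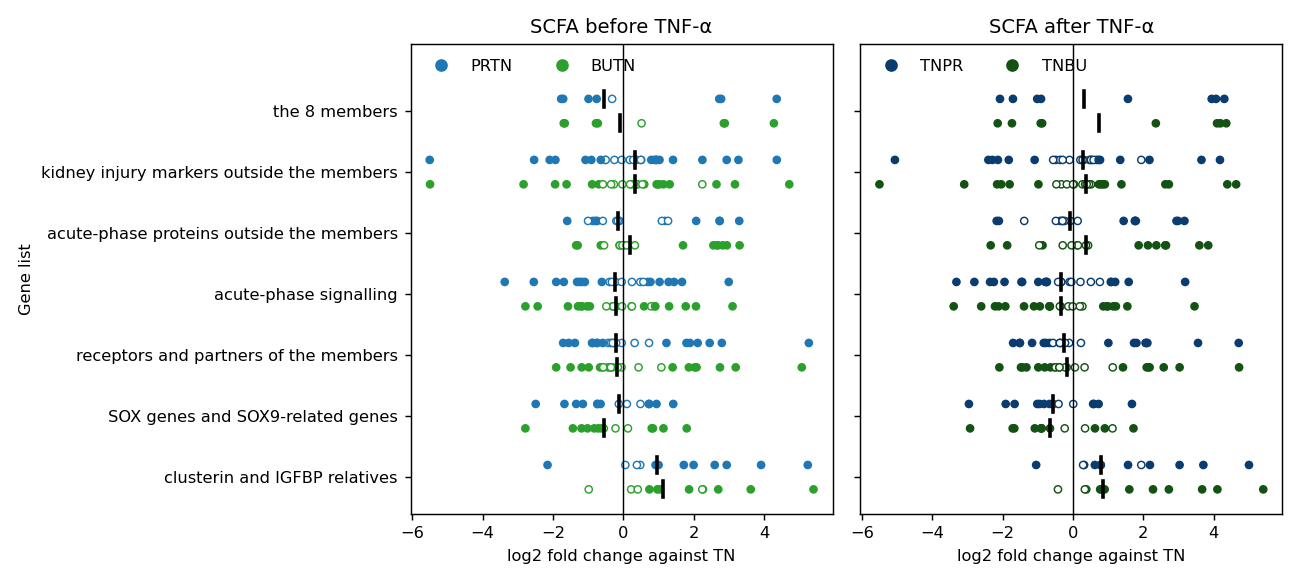
Log2 fold change against TN (x) of the 8 genes and of the 6 lists (y), with SCFA before TNF-α on the left and after it on the right. Filled points were called, black bars are medians, and 10 genes at 0 in both TN libraries are left out as points but count in the medians at their bounds. The lists hold rises and falls, and the clusterin and IGFBP relatives lie mostly to the right, with medians of 0.79 to 1.12.

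Of 28 receptors and partners of the 8 proteins 25 were tested. CD44, a receptor for osteopontin, was at 246 and 261 CPM in Ctrl and 412 and 414 in TN, the only one that rose there. Rises and falls against TN numbered 9 and 8 for PRTN, 8 and 6 for BUTN, and 9 and 7 for both later groups. List medians were -0.23 to -0.16, and -0.25 to -0.18 with LRP2 and TLR4, at 0 in TN, set at their bounds. SLC22A17, a receptor for LCN2, was at 0.782 and 1.36 CPM in TN and between 3.80 and 5.15 CPM in the SCFA libraries. MMP9, whose product forms a complex with LCN2 protein, was at 1.01 and 0.798 CPM in TN and between 3.75 and 6.15 CPM. CD36, a scavenger receptor that binds serum amyloid A, was below 0.1 CPM in each library without SCFA and between 1.83 and 2.86 CPM with it. TIMD4, a relative of HAVCR1, was at 1.27 and 1.29 CPM in TN and fell to 0.245 and 0.332 CPM in TNBU.

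Of 18 SOX and SOX9-related genes 15 were tested. SOX6 was called down in TN against Ctrl, by 0.62 on the log2 scale with an adjusted p of 0.0422, a call that edgeR and DESeq2 did not make. Propionate gave 4 rises and 7 falls against TN at both times, and butyrate 5 and 7 when given first and 4 and 8 when given later. Medians were -0.13, -0.56, -0.56 and -0.66. SOX6 was at 4.97 and 5.17 CPM in TN and between 0.531 and 0.970 CPM with an SCFA. COL2A1, a collagen gene that SOX9 drives in cartilage, was listed at 0 in both TN libraries and between 3.58 and 5.32 CPM in the SCFA libraries. COL11A2, another cartilage collagen, was at 2.61 and 2.48 CPM in TN and between 6.31 and 9.09 CPM. Both collagen genes were high in the libraries in which SOX9 was low. YAP1, a Hippo pathway coactivator, fell by 1.68 in PRTN and by 1.92 in TNPR on the log2 scale.

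Of 19 relatives of clusterin, lipocalin and IGFBP genes 16 were tested. None was called in TN against Ctrl by limma-voom. Against TN 11 rose and 1 fell with propionate first, 12 and 1 with propionate later, and 11 and 0 with butyrate at both times. The list median was 1.92 to 2.25, or 0.79 to 1.12 with APOD, DMP1, IGFBP5 and LCN1, which were at 0 in TN, set at their bounds. IGFBP4, a binding protein of insulin-like growth factors, averaged 5.46 ± 0.195 CPM (SD, n = 2) in TN and was between 14.9 and 20.2 CPM. IGFBPL1 went from 0.856 and 0.538 CPM to between 2.74 and 3.58 CPM. IGFBP2 was below 0.04 CPM in each library without SCFA and between 1.48 and 2.63 CPM with it. IGFBP7 fell while these 3 relatives rose. The 3 were named by the size of their change, so they do not stand for all IGFBP genes of the list.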

How the data were processed

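Polyadenylated RNA of 12 HK2 libraries was sequenced after stranded preparation. The authors checked reads with FastQC 0.11.5, aligned them to GRCh38 with STAR 2.6.1a and counted GENCODE genes with RSEM, and the deposited values are expected counts that were neither scaled nor filtered. Here they were used unrounded in limma 3.58.1 with TMM factors from edgeR 4.0.16 in R 4.3.3: genes with a geometric mean of the count plus 1, minus 1, of at least 1 were kept, and voom was fitted with a mean per group over all libraries. Calls needed a fold change over 1.5 and a Benjamini-Hochberg adjusted p under 0.05 over 24342 genes. Alternatives were edgeR's quasi-likelihood test and DESeq2 1.42.0 on rounded counts, other scalings, filters, thresholds and fits, a replicate block, and leaving out each library. The script was tested on simulated counts.

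Named were all 8 genes, their 3 most similar genes, and, per list and contrast, up to 3 called genes with the largest change, no overlap between libraries and at least 1 CPM. The genes and lists were chosen with earlier results of these data known. Where a library had no count, the bound was set at 3 counts, which covers counting error only. Replicate numbers were not used as pairs.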

Additional observations from a re-analysis of the deposited data

Results flagged for a closer look

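The 3 genes LCN2, SAA1 and SAA2 differed in level between the 2 orders of treatment, by the direct test of the later against the earlier SCFA. The order and the time from TNF-α to harvest cannot be told apart, and SAA1 and SAA2 share reads. For propionate the log2 difference was 1.88 for LCN2, 1.22 for SAA1 and 1.29 for SAA2. For butyrate it was 1.84 for LCN2, 1.21 for SAA1 and 1.33 for SAA2. The later groups were higher in 2 of 2 libraries each time, which comes from the same libraries as the calls and is no separate evidence. Among the genes not called, HAVCR1 and IGFBP7 did not overlap between the groups in both comparisons, nor did SOX9 for butyrate. That made 5 of the 8 genes without overlap for propionate and 6 for butyrate. The share over all genes was not computed, so these counts mark nothing particular to the 8 genes.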

How the results depend on the processing

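The number of the 8 genes called in each contrast was the same by edgeR, DESeq2 and the replicate block, and stayed within 1.5 times of the reported number under the other settings. The exception was TN against Ctrl, where 2 genes instead of 0 passed on the adjusted p alone. Leaving out each library gave 0 calls in TN against Ctrl throughout and, against TN, 7 where the SCFA came first and 8 where it came later. Against Ctrl it gave 6 for PRTN, 7 to 8 for TNPR and 7 for both butyrate groups, and by timing 3 for propionate and 3 to 4 for butyrate. The added calls were SOX9 without replicate 2 of TNPR (-0.61) and HAVCR1 without replicate 1 of TNBU. In these fits the lone library of a group is assumed to vary like the other groups.

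Signs turned only for uncalled values near 0, and the cause was not tested. LCN2 in PRTN against Ctrl was -0.0118 with no filter and -0.0103 with only the groups compared. SPP1 in TNPR against PRTN was -0.00760 by DESeq2, -0.00853 with relative log expression factors and -0.0113 with the literal geometric mean. SAA1 in TN against Ctrl was -0.0300 with library size alone, and SAA2 there was 0.00320 with summed counts. Leaving out 1 library each, LCN2 in PRTN against Ctrl ranged from -0.0556 to 0.0431, HAVCR1 in TN against Ctrl from -0.0468 to 0.0115 and SAA1 there from -0.0330 to 0.0831. CLU by timing ranged from -0.226 to 0.0857 for propionate and from -0.0691 to 0.208 for butyrate, and SPP1 from -0.0650 to 0.0334 and from -0.162 to 0.0564. SOX6 in TN against Ctrl lost its call by edgeR (adjusted p = 0.136), by DESeq2 (0.262), with no filter (0.0848) and in 6 of the fits that left out a library.

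Same-numbered replicates correlated in their deviations from -0.0347 to 0.0658 over 15 pairs of groups, with 0 over 0.1. The highest value was between TNPR and TNBU. Their replicates also differed in the same direction for SAA1, SAA2, CLU, HAVCR1, SPP1 and IGFBP7. A correlation over all genes need not show a batch shared by few groups or genes, and such a batch was not tested. The replicate block changed no call of the 8 genes (0 in TN against Ctrl, 3 in each timing comparison). Scaling by library size alone moved the all-gene median against TN by 0.153 to 0.196, and the share of rises among called genes from 58.9% to 68.5% in PRTN, 60.9% to 71.2% for BUTN, 59.6% to 69.8% for TNPR and 60.2% to 72.0% for TNBU. Each group has 2 libraries, and differences under 1.5-fold were left uncalled by the fold threshold, whatever their adjusted p.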
